A study of Saccharomyces cerevisiae with 35 samples.

Results

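The 6 budding yeast genes SSB1, SSB2, ZUO1, SSZ1, EGD1 and EGD2, taken by name from the 5843 features counted, encode chaperones that sit on the ribosome and meet the new protein chain as it leaves. They were followed after rapamycin, with the question of whether their transcripts move with the genes of ribosomal proteins or with the heat shock genes. Wild-type strains and strains carrying an fpr1 deletion, all in the FY4/5 background, were pooled, and both genotypes grew in the same flask of rich medium (YPD) at 30 °C. Each of 2 cultures was drawn off continuously and collected in 8 intervals of 10 min, the first 2 before and the other 6 after 200 ng/mL rapamycin, and each collection gave a single-cell library of 3′ transcript ends. A further 3 wild-type cultures in YPD were sampled in bulk from 0 to 120 min after the same dose. Rapamycin acts by binding the protein made from FPR1, and the complex inhibits TORC1, the kinase complex that couples growth to nutrients. Deletion cells therefore meet the drug without its receptor.

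Ssb1 and Ssb2 are nearly identical Hsp70 chaperones that bind nascent chains at the ribosome. Zuo1, a J-protein, and Ssz1, an atypical Hsp70, form the ribosome-associated complex (RAC), which stimulates the ATPase of Ssb. Egd2 and Egd1 are the alpha and beta subunits of the nascent polypeptide-associated complex (NAC), which also contacts chains near the exit tunnel. Heat shock genes, by contrast, serve proteins that have misfolded; their inducible members are driven by the heat shock factor Hsf1 and the stress factors Msn2 and Msn4, and a basal set depends on Hsf1 without stress.

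The single-cell files held 162529 wild-type cells of 72 strain codes and 10818 deletion cells of 6 strain codes, and the unique molecular identifiers (UMIs) of all cells of a genotype were added up within each of the 16 libraries. Wild-type sums held 3993298 to 69114350 UMIs from 1693 to 14688 cells and deletion sums 1501368 to 5191196 UMIs from 444 to 911 cells, so deletion values are less precise. Of 169649 distinct cell barcodes, 3646 (2.149%) occurred in more than 1 library. FPR1 had 914.8 to 1824 UMIs per 1000000 of the library (counts per 1000000, CPM) among wild-type cells and 13.6 to 98.9 among those called deletion, which is 1.03% to 7.91% of the wild-type level within a library. In sums over cells, fewer cells of a type and less RNA per cell cannot be told apart.

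The promoters of SSB2, EGD1 and EGD2 are shown because all 3 hold an element best known from ribosome biogenesis genes. Each window runs from 250 bases before to 50 bases after the first base of the start codon in RefSeq assembly R64 (sacCer3), 5′ to 3′ on the gene's strand. Capitals mark matches to the ribosomal RNA processing element (RRPE, searched as AAAAATTTT), to heat shock elements (GAANNTTC and TTCNNGAA) and to the Rap1 motif (ACCCNNACA), each searched on both strands. The windows are chrXIV:251809-252108 on the plus strand for SSB2, chrXVI:481852-482151 on the minus strand for EGD1 and chrVIII:488187-488486 on the minus strand for EGD2.
SSB2: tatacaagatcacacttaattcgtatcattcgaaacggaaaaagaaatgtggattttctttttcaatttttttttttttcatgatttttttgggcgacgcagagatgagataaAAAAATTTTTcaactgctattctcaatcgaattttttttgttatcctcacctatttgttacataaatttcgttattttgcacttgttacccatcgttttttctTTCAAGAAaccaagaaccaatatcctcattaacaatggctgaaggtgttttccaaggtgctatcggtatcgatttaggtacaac
EGD1: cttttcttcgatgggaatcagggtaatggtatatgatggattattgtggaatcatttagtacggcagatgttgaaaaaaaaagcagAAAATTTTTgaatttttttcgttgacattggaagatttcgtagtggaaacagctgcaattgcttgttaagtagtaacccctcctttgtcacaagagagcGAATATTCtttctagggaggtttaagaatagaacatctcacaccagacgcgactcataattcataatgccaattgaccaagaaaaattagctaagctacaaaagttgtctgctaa
EGD2: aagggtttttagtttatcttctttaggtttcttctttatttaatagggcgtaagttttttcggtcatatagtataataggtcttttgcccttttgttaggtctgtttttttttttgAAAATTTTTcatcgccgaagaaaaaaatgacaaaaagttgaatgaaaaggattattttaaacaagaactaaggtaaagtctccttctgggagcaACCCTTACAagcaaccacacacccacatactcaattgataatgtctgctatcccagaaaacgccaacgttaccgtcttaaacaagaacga
All 3 windows hold the RRPE, between 134 and 164 bases before the start codon (in SSB2 as overlapping matches on both strands), while those of ZUO1 and SSZ1 do not. Among 6007 yeast promoter windows of the same length 6.99% hold it, against 4.38% of 137 ribosomal protein promoters. The PAC motif (GATGAG), the usual companion of the RRPE, lies in the windows of SSB2 and SSZ1 and in 20.4% of all windows. EGD2 has a Rap1 match, 40 bases before its start codon, and 2.83% of all windows and 8.76% of ribosomal protein windows have one. EGD1 has a heat shock element (GAATATTC), 65 bases before the start codon, and SSB2 has one in the other orientation (TTCAAGAA), 34 bases before it. These forms occur in 11.8% and 12.9% of all windows and in 22.6% and 13.9% of ribosomal protein windows. They occur in 16.7% and 50% of 12 inducible heat shock windows, and in 56.2% and 62.5% of 16 basal ones. The stress response element (AGGGG), bound by Msn2 and Msn4, was matched in EGD1 and in 21.6% of all windows. A match describes the letters and does not show a site in use.

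Both SSB transcripts fell steeply in wild-type cells. SSB1 (YDL229W, one coding exon at chrIV:44065-45906) stood at 2645, 2545, 2282, 1256.5, 451, 142, 59.8 and 52.6 CPM in the 8 intervals of culture 1, scaled by the trimmed mean of M-values (TMM). In culture 2 it stood at 3082, 3154, 2618, 1447.5, 456, 153, 59.1 and 38.7 CPM. From the interval 10 to 20 min onward every value lay below every untreated one, and both cultures gave nearly the same curve. By 50 to 60 min SSB1 was down by a log2 change of -5.99 (SE 0.17; adjusted p = 1.855e-18 by the quasi-likelihood test of edgeR, Benjamini-Hochberg over 5549 genes), or 63.3-fold. SSB2 (YNL209W, one coding exon at chrXIV:252059-253900) stood at 2033, 1897, 1745.5, 1093, 483, 203, 106 and 86.3 CPM in culture 1. In culture 2 it stood at 2209, 2269, 1934, 1214, 487, 208, 104 and 73.3 CPM, again with no overlap from 10 to 20 min onward. Its log2 change at 50 to 60 min was -4.72 (SE 0.13, edgeR, adjusted p = 1.855e-18), or 26.4-fold. The coding sequences of the pair are 97.6% identical, the last 300 coding bases 96% and the 300 bases after the stop codon 64%. The sources used here do not say how reads were shared between such copies, so the division of counts between SSB1 and SSB2 is uncertain.

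The RAC genes fell less far. ZUO1 (YGR285C, chrVII:1061852-1063153, minus strand), which encodes the J-protein, stood at 836, 779.7, 736, 519, 362, 271, 214 and 204 CPM in culture 1. In culture 2 it stood at 704, 741, 688, 549, 385, 282, 244 and 219 CPM. The groups did not overlap from 10 to 20 min on, and the log2 change at 50 to 60 min was -1.85 (SE 0.13, edgeR, adjusted p = 8.35e-12), the smallest of the 6. SSZ1 (YHR064C, chrVIII:225525-227141, minus strand), its Hsp70 partner, stood at 585, 540.4, 509, 308, 178, 124, 102 and 103 CPM in culture 1. In culture 2 it stood at 588, 621, 529, 351, 196, 149, 129 and 117 CPM. Most of its decline was complete by 30 to 40 min, and the log2 change at 50 to 60 min was -2.41 (SE 0.12, edgeR, adjusted p = 3.89e-14).

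The NAC genes moved much as the RAC genes did. EGD1 (YPL037C, chrXVI:481428-481901, minus strand), encoding the beta subunit, stood at 1962, 1831, 1703, 1161, 709, 538, 444 and 419 CPM in culture 1. In culture 2 it stood at 2013, 2114, 1888, 1294, 755, 645, 545 and 539.9 CPM, above culture 1 in every interval. Its log2 change at 50 to 60 min was -2.05 (SE 0.12, edgeR, adjusted p = 8.44e-13). EGD2 (YHR193C, chrVIII:487712-488236, minus strand), encoding the alpha subunit, stood at 2802.5, 2772, 2559, 1724, 823, 516, 389 and 371 CPM in culture 1. In culture 2 it stood at 2514, 2460.5, 2221, 1597, 785, 566, 441 and 413.5 CPM, and from 10 to 20 min on no value reached an untreated one. Its log2 change was -2.75 (SE 0.14, edgeR, adjusted p = 2.64e-14), or 6.72-fold.

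**Figure D1:**
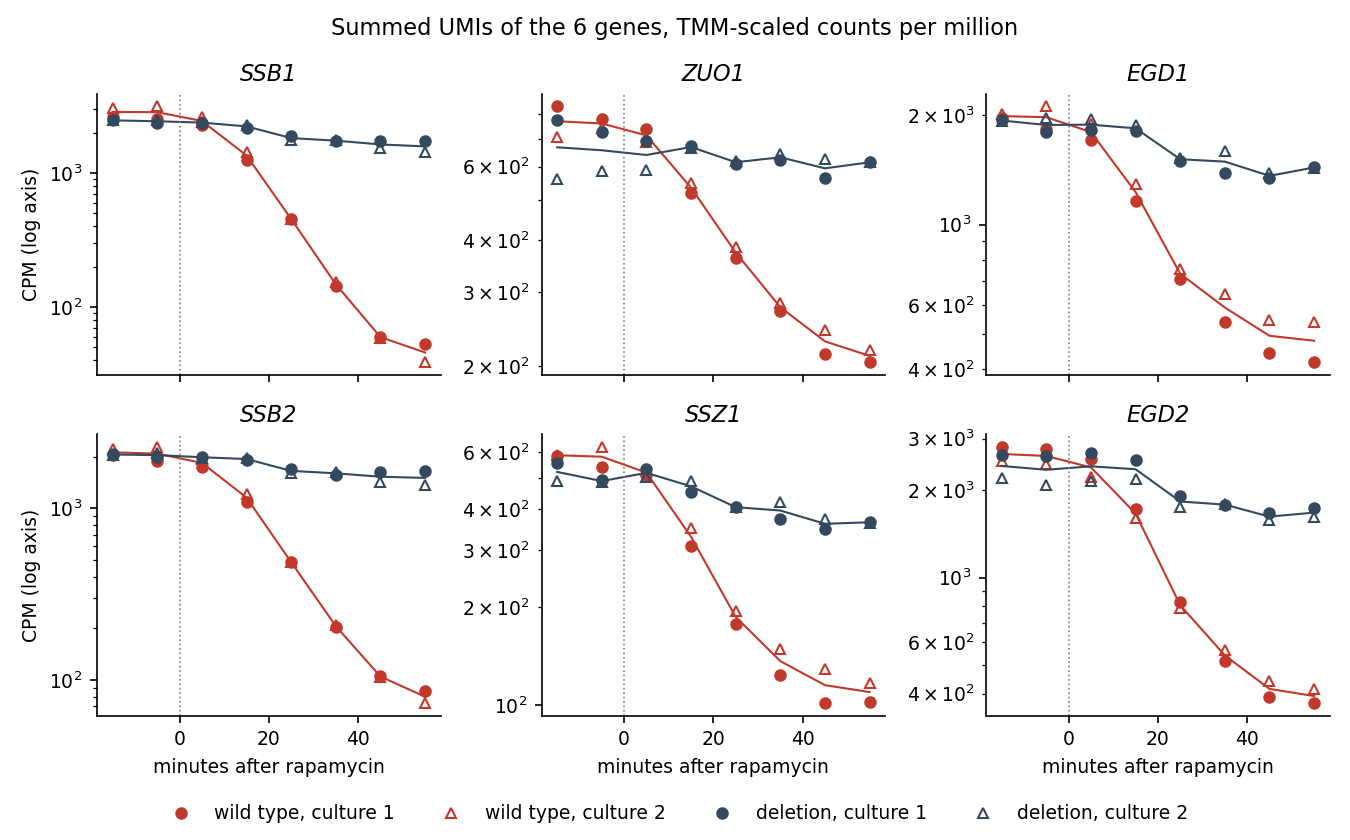
TMM-scaled CPM (log axis) of the 6 genes against the midpoint of each interval in minutes after rapamycin (dotted line at 0). Points are single sums in wild-type (red) and fpr1 deletion (dark) cells, filled circles for culture 1 and open triangles for culture 2, and lines join the means of both. Wild-type SSB1 ends at 52.6 and 38.7 CPM while the deletion cells end at 1730.1 and 1434.

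The fall was first called at 10 to 20 min, though all 6 estimates were already negative at 0 to 10 min. In that earlier interval each of the 6 lay, within each culture, below both untreated sums of that culture. For SSZ1 alone this also held across cultures (509 and 529 CPM, against 540.4 to 621 CPM untreated). At 0 to 10 min the log2 changes lay between -0.22 and -0.10 and none of the 6 was called at an edgeR adjusted p under 0.05; none had an unadjusted p under 0.05 and DESeq2 called none, while 9.50% of all genes were called lower. At 10 to 20 min all 6 were called lower, beside 28.5% of all genes: SSB1 changed by -1.08 (SE 0.12), SSB2 by -0.87 (SE 0.10), SSZ1 by -0.83 (SE 0.11), EGD1 by -0.69 (SE 0.11), EGD2 by -0.67 (SE 0.12) and ZUO1 by -0.52 (SE 0.12). With sums scaled to the number of cells none of these 6 calls held, and with library totals only those of SSB1 and SSB2 did, all values staying negative. The calls were 6 of 6 in each later interval, except that with library totals ZUO1 was not called at 20 to 30 min (-0.37, edgeR, adjusted p = 0.0761). They stood beside 32.4%, 34.0%, 35.1% and 36.0% of all genes at 20 to 30, 30 to 40, 40 to 50 and 50 to 60 min. The range over the 6 widened from -2.66 to -1.03 at 20 to 30 min to -5.59 to -1.74 at 40 to 50 min. Without drug there was no such movement: between both untreated intervals the 6 changed by -0.03 to -0.01 in wild type and by -0.09 to -0.01 in deletion cells. No gene of all tested was called in either genotype (0.00% and 0.00% by edgeR), and of the 6 none had an unadjusted p under 0.05 or was called by DESeq2.

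Set beside the gene lists at 50 to 60 min, the SSB genes lay among the ribosomal protein genes, and the other 4 lay between the medians of the ribosomal protein genes and of the basal heat shock factor targets. Of 137 ribosomal protein genes 135 were called lower at 50 to 60 min, beside 36.0% of all genes. Their median log2 change was -4.62, against 0.11 over all 5549 genes. The list ran from RPS26B at -7.31 and RPS3 at -6.90 to RPL41B at -0.36 (edgeR, adjusted p = 0.632) and RPL15B at -0.01 (edgeR, adjusted p = 0.978). Only 8 of the 137 had a lower change than SSB1 and 58 a lower one than SSB2, but 132 had a lower one than EGD2 and 135 a lower one than each of ZUO1, SSZ1 and EGD1. The 12 inducible heat shock genes had a median of 0.86, with 7 called higher and 2 lower. HSP12 and HSP26, which encode small stress proteins, rose by 5.92 and 3.38, while BTN2, encoding a factor that sorts misfolded proteins, and HSP82, encoding the inducible Hsp90, fell by 3.78 and 1.45. In deletion cells HSP12 changed by 2.34 (edgeR, adjusted p = 0.0628), HSP26 by 2.86 (edgeR, adjusted p = 0.0293), BTN2 by -1.79 and HSP82 by -0.14. The difference between genotypes was called for HSP12 (3.58), BTN2 (-1.99) and HSP82 (-1.31) but not for HSP26 (0.53, edgeR, adjusted p = 0.702). In wild-type cells 15 of the 16 basal heat shock factor targets were called lower, with a median of -1.46. The 4 lay within the range of that list: 5 of the 16 had a lower change than ZUO1 and than EGD1, 2 a lower one than SSZ1 and than EGD2, and 0 a lower one than SSB1 or SSB2. Among them the genes of the cytosolic Hsp70 Ssa2 and its J-protein partner Ydj1 changed by -2.96 and -2.88, SSA1 by -1.09, and the mitochondrial J-protein gene MDJ1 by -0.02 (edgeR, adjusted p = 0.966).

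**Figure D2:**
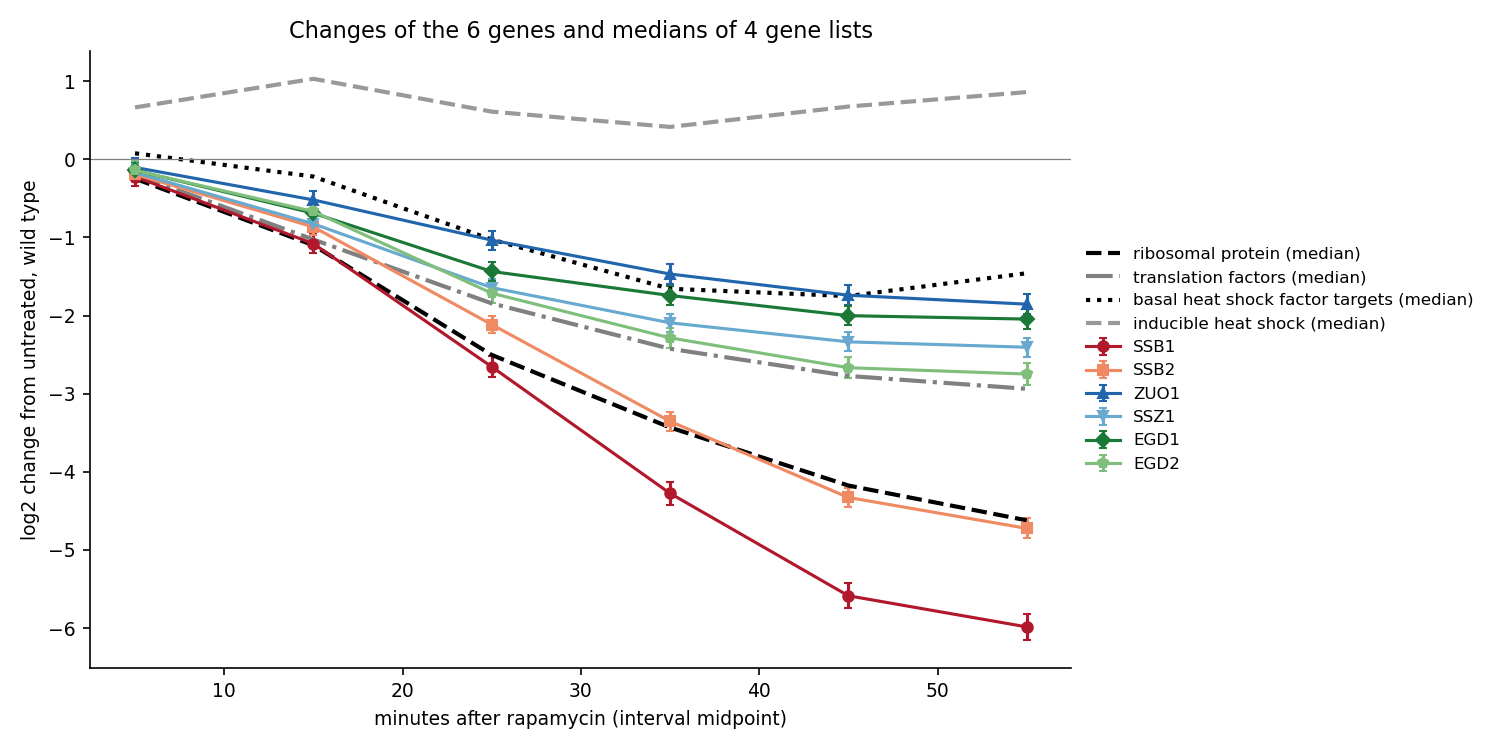
Log2 change from the untreated intervals in wild-type cells against the midpoint of each interval in minutes after rapamycin. Coloured lines with points are the 6 genes (bars are standard errors) and grey or black lines are the medians of 4 gene lists. SSB2 ends at -4.72 against -4.62 for the ribosomal protein median, and SSB1 ends below both at -5.99.

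The difference from each list was tested directly by measuring every gene against the list's mean level in the same sum. Relative to the ribosomal protein genes, SSB1 fell further, by -1.48 (SE 0.13, edgeR, adjusted p = 8.46e-11) on the log2 scale at 50 to 60 min. SSB2 differed from that mean by -0.22 (SE 0.11, edgeR, adjusted p = 0.0674), which is not called; with the culture as a block it was -0.22 with adjusted p = 0.0216 by edgeR, and against the list's median 0.031. Leaving out the second or the last library of culture 1 (-10 to 0 and 50 to 60 min) also brought SSB2 past the threshold, at -0.26 and -0.29. Earlier, SSB2 stood above the ribosomal protein mean: it was called higher at 10 to 20 min, by 0.30 (SE 0.11, edgeR, adjusted p = 0.0124), and at 20 to 30 min, by 0.35 (SE 0.11, edgeR, adjusted p = 0.00440). Of all genes 83.3% and 91.1% were called higher at those times, and the first call was lost once culture 2's library of that interval was left out (0.21). SSB1 was not called at either time, at 0.09 and -0.19. At 50 to 60 min the other 4 were called higher than the ribosomal protein mean: EGD2 by 1.76 (SE 0.12), SSZ1 by 2.10 (SE 0.15), EGD1 by 2.47 (SE 0.15) and ZUO1 by 2.65 (SE 0.15). On this scale 96.1% of all genes were called higher and 2.07% lower, so the lower call of SSB1 is in the smaller share and the 4 higher calls are in the usual one. Relative to the inducible heat shock genes all 6 were called lower, as were 65.2% of all genes, with differences from -7.16 (SE 0.40) for SSB1 to -3.01 (SE 0.29) for ZUO1. At 0 to 10 min these differences already lay between -0.91 and -0.77 (edgeR, adjusted p 0.00639 to 0.0144). Relative to the basal heat shock factor targets, where 11.1% of all genes were called lower, the 6 formed a series at 50 to 60 min. SSB1 stood at -4.38 (SE 0.21), SSB2 at -3.12 (SE 0.18), EGD2 at -1.14 (SE 0.13), SSZ1 at -0.80 (SE 0.12), EGD1 at -0.45 (SE 0.13) and ZUO1 at -0.25 (SE 0.11). The last of these is weak: ZUO1 had an adjusted p of 0.0343 by edgeR and missed the threshold in 5 of 6 fits that each left out 1 library. EGD1 had 0.00289 by edgeR and 0.0855 once the last library of culture 1 (50 to 60 min) was left out, where its difference was -0.31. At 30 to 40 min ZUO1 was called higher than this list, by 0.26 (SE 0.11, edgeR, adjusted p = 0.0236), beside 85.4% of all genes. That call was lost once culture 1's library of that interval was left out (0.23), against the list's median (0.25) and with only the groups compared (0.26). EGD1 then stood at -0.027, and neither gene was called at 40 to 50 min.

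**Figure D3:**
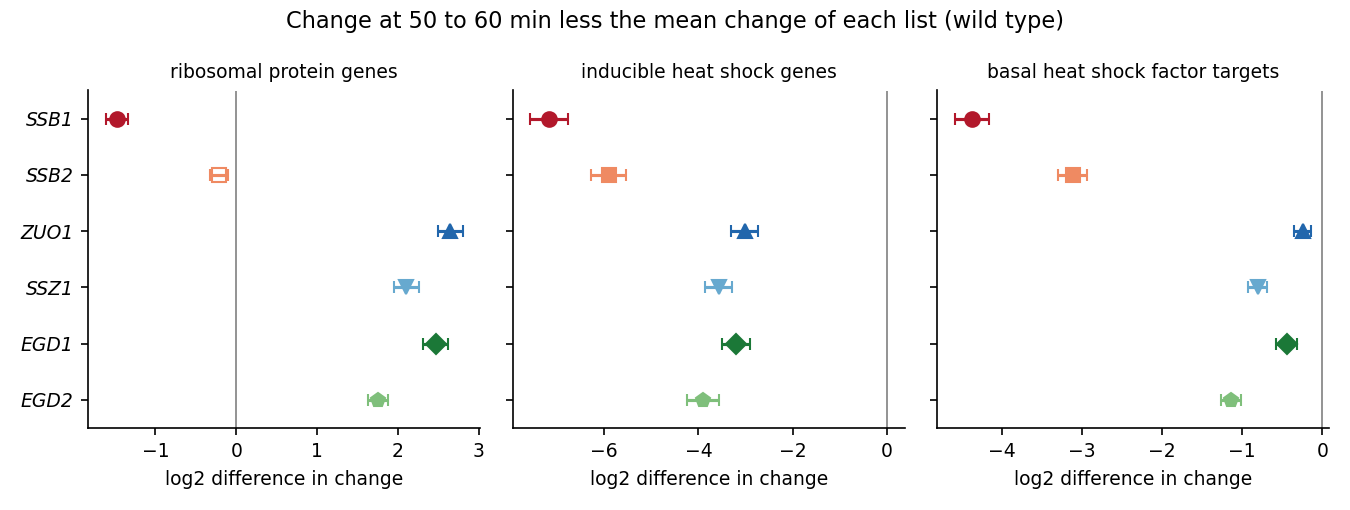
Log2 difference between each gene's change at 50 to 60 min and the mean change of a list, in wild-type cells. Bars are standard errors, and an open symbol marks a difference with an adjusted p over 0.05. SSB2 is the one gene near 0 against the ribosomal protein genes (-0.22), and ZUO1 (-0.25) and EGD1 (-0.45) are nearest 0 against the basal heat shock factor targets.

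Likeness over the whole time course was also measured. It was the root mean square (RMS) difference of centred log2 CPM over the 16 wild-type sums, which share their libraries, and it was computed among 2105 genes with a mean of at least 50 CPM. Of the 50 genes nearest to SSB1 48 were ribosomal protein genes, and so were 48 of the 50 nearest to SSB2. For EGD2 the number was 5, for SSZ1 and EGD1 1 each, and for ZUO1 0. Inducible heat shock genes made up 0 of the 50 for each of the 6. Basal heat shock factor targets made up 1 for ZUO1, EGD1 and EGD2 each, and 0 for SSB1, SSB2 and SSZ1. The share of each list among the 2105 genes was not computed. The nearest to SSB1 were RPL22A (RMS 0.168), RPL26B (0.194) and RPS10A (0.200), and to SSB2 RPS31 (0.0867), RPS24A (0.0953) and RPL2B (0.128). ZUO1 lay nearest to YDL012C (0.118) and to CCT2 (0.125) and CCT4 (0.129), subunits of the cytosolic chaperonin. SSZ1 lay nearest to CAF20 (0.0817), a translation repressor gene, the threonyl-tRNA synthetase gene THS1 (0.105) and DYS1 (0.131), whose enzyme modifies the translation factor eIF5A. EGD1 lay nearest to FRS1 (0.0804) and GRS1 (0.0974), tRNA synthetase genes, with the feature NATMX (0.0905) between them. EGD2 lay nearest to OLA1 (0.127), GSP1 (0.181), encoding the Ran GTPase, and PGA3 (0.204). Against the list means, SSB2 had an RMS of 0.202 to the ribosomal protein genes, 1.53 to the basal heat shock factor targets and 2.75 to the inducible heat shock genes. SSB1 had 0.787, 2.27 and 3.48 in that order, with the ribosomal protein genes nearest of the 6 lists. Of the 6 list means, that of the basal heat shock factor targets was nearest to ZUO1 and EGD1 (0.191 and 0.280). That of the translation factors was nearest to SSZ1 and EGD2 (0.215 and 0.187). ZUO1 lay almost as near to the mean of the other factors that meet the nascent chain (0.232). Against the inducible heat shock genes all 4 had 1.23 to 1.79.

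Deletion cells, without the drug's receptor, changed far less. Before rapamycin the 6 differed between genotypes by 0.04 to 0.22 on the log2 scale (wild type minus deletion); edgeR and DESeq2 called none, against 0.541% of all genes in either direction, and SSB1, ZUO1 and SSZ1 had an unadjusted p under 0.05. SSB1 stood at 2475 and 2477 CPM in deletion cells at -20 to -10 min (cultures 1 and 2), at 2385 and 2492 at -10 to 0 min, and at 1730.1 and 1434 at 50 to 60 min. The late values lie below all untreated ones, yet far above those of wild-type cells in the same libraries. Its log2 change was -0.64 (SE 0.12, edgeR, adjusted p = 0.00215). SSB2 changed by -0.45 (SE 0.10), from 1983 to 2102 CPM in the 4 untreated sums to 1648 and 1360.4. EGD2 changed by -0.51 (SE 0.12), SSZ1 by -0.47 (SE 0.11) and EGD1 by -0.41 (SE 0.11, edgeR, adjusted p = 0.0220). ZUO1 stood at 560 to 774 CPM untreated and at 614 in both late sums, a change of -0.11 (SE 0.12, edgeR, adjusted p = 0.621) that is not called.

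The number of the 6 called lower in deletion cells by edgeR was 0, 0, 0, 3, 5 and 5 over the treated intervals, beside 0.00%, 0.00%, 1.93%, 2.67%, 6.67% and 6.42% of all genes. At an unadjusted p under 0.05, and by DESeq2, it was 0, 0, 5, 5, 5 and 5. With the culture as a block it was 5 at 20 to 30 min and 5 at 30 to 40 min. The 3 calls at 30 to 40 min were 0 once the -20 to -10 min library of culture 1, or either library of 30 to 40 min, was left out, and 1 once the -10 to 0 min library of culture 1 was. At 40 to 50 min the 5 calls were 3 once that library of culture 2 was left out. Ribosomal protein genes moved the same way in deletion cells, with 87 of 137 called lower at 50 to 60 min and a median of -0.53, against 0.05 over all genes. These small changes depend on the scaling and on 1 library: once the last library of culture 2 (50 to 60 min) was left out none of the 6 was called, EGD1 was called in only 1 of 6 fits that each left out a library, and with sums scaled to the number of cells all 6 values were positive, from 0.040 to 0.58. Wild-type and deletion cells shared each library, and FPR1 UMIs in deletion cells reached 7.91% of the wild-type level; with that share of wild-type RNA removed from the deletion sums EGD1 was no longer called (-0.33).

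The difference between genotypes in the response was tested as an interaction. At 10 to 20 min all 6 had fallen further in wild type, by edgeR, beside 20.4% of all genes, with differences from -0.94 (SE 0.17) for SSB1 to -0.54 (SE 0.16, adjusted p = 0.0132) for ZUO1. With library totals 1 of these 6 calls held and with sums scaled to cells none. Leaving out the 10 to 20 min library of culture 1 or of culture 2 ended the call of ZUO1 (-0.49 and -0.58), and leaving out that of culture 1 ended the call of EGD2 (-0.60). At 50 to 60 min all 6 were called again, beside 30.8% of all genes. SSB1 differed by -5.35 (SE 0.18), SSB2 by -4.28 (SE 0.15), EGD2 by -2.24 (SE 0.17), SSZ1 by -1.94 (SE 0.15), ZUO1 by -1.75 (SE 0.17) and EGD1 by -1.64 (SE 0.16), with edgeR adjusted p of at most 9.12e-09.

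Partner genes did not keep a constant ratio. The log2 ratio of each pair was compared between treated and untreated intervals in wild-type cells by a two-sided exact permutation of intervals within each culture, with 28 arrangements per culture and 3 pairs adjusted together. SSB1 lost 0.70 on the log2 scale against SSB2 (-0.66 in culture 1 and -0.74 in culture 2, exact permutation p = 0.0179, adjusted 0.0268). The ratio of ZUO1 to SSZ1 rose by 0.46 (0.40 and 0.53, exact permutation p = 0.00128, the smallest possible, adjusted 0.00383). The ratio of EGD1 to EGD2 was higher by 0.36 (0.40 and 0.32, exact permutation p = 0.0548, adjusted 0.0548), which does not pass; from 20 min on it was 0.54 with exact permutation p = 0.00444, the smallest that 225 arrangements allow. With either culture alone, where the smallest exact p of 28 arrangements is 0.0357, no pair passed after adjustment (exact permutation, adjusted 0.107 to 0.25). The test treats successive intervals of wild-type cells as exchangeable, so it cannot by itself tell a drift with time from the drug. The ratios were not tested in deletion cells. In their last interval ZUO1 also changed less than SSZ1 (log2 changes of -0.11 and -0.47). SSB1 changed more than SSB2 there (-0.64 and -0.45), and EGD1 less than EGD2 (-0.41 and -0.51). Each of these gaps was smaller than in wild-type cells.

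Cells of one interval differed in how much ribosomal protein RNA they held, and the levels of all 6 genes differed between such cells, before rapamycin most for EGD2. Wild-type cells of each library were ranked by the share of their UMIs from ribosomal protein genes and cut into quintiles, and each of the 6 genes was expressed per 10000 of the other UMIs. The quintiles themselves moved apart in relative terms: the lowest and highest held 33.2% and 45.4% ribosomal protein UMIs at -20 to -10 min in culture 1 and 35.7% and 46.2% in culture 2. At 50 to 60 min they held 1.47% and 6.22% in culture 1 and 2.11% and 5.87% in culture 2, so the ratios of different times compare cells that stood unequally far apart. At -20 to -10 min the highest quintile held 1.40 and 1.39 times the SSB1 of the lowest quintile (cultures 1 and 2). At 10 to 20 min the ratios were 2.06 and 2.24, and at 50 to 60 min 5.65 and 3.95. SSB2 went from 1.28 and 1.25 through 1.81 and 1.82 to 5.53 and 3.00, so the ratios of both genes were higher at the end in both cultures. The last ratios of culture 1 rest on 263 SSB1 and 432 SSB2 UMIs in its 1693 cells. ZUO1 went from 1.10 and 1.20 to 2.10 and 1.69, and SSZ1 from 1.32 and 1.22 to 1.88 and 1.62. The NAC genes changed less: EGD1 went from 1.51 and 1.36 to 1.92 and 1.48, and EGD2 from 1.77 and 1.51 to 1.76 and 1.22. A second ranking left out the 7353 wild-type cells of all intervals with under 1000 UMIs and thinned every other cell to 1000 UMIs. It thus changed both the cells and their depth. Its mean ratios at 50 to 60 min were 5.15 for SSB1, 2.92 for SSB2, 1.91 for ZUO1, 2.00 for SSZ1, 1.73 for EGD1 and 1.34 for EGD2. In the first ranking ZUO1 and SSZ1 rose at every step from the lowest to the highest quintile in only 1 culture at -20 to -10 min. The same was true of SSB1, SSB2, SSZ1 and EGD2 at 50 to 60 min. These are descriptions without a test, and an interval of 10 min mixes cells collected at its start and end. Ratios for heat shock genes or for all genes were not computed.

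**Figure D4:**
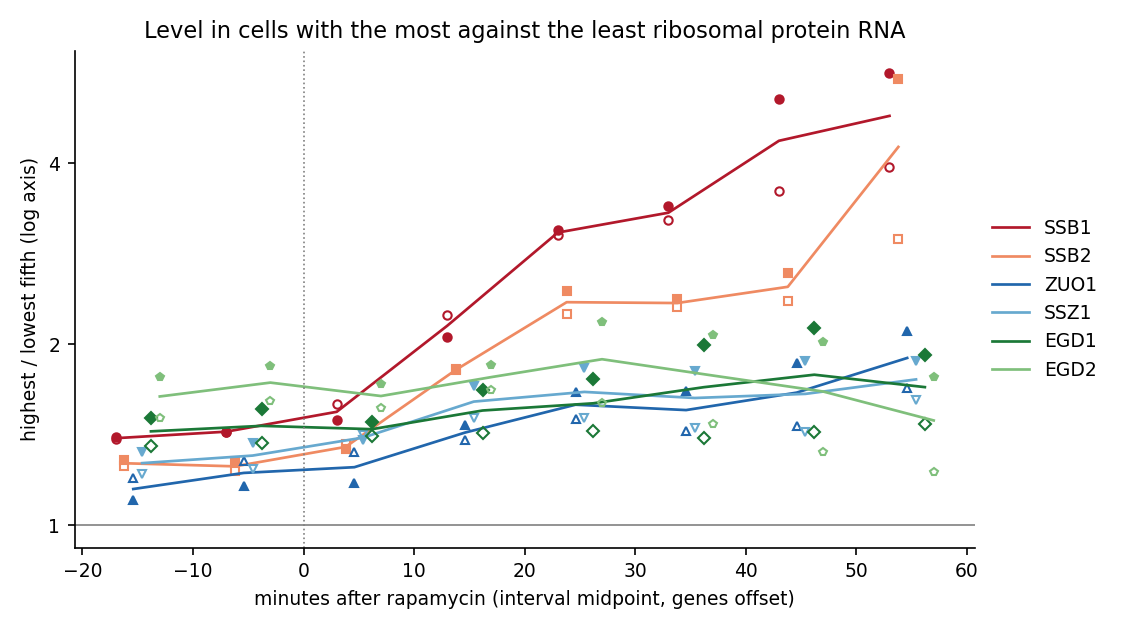
Ratio (log axis) of each gene's UMIs per 10000 UMIs outside ribosomal protein genes between the quintiles of wild-type cells with the most and the least ribosomal protein RNA, against interval midpoint in minutes after rapamycin, with genes offset sideways. Filled symbols are culture 1, open symbols culture 2, and lines join their means. SSB1 goes from 1.40 and 1.39 to 5.65 and 3.95.

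In the bulk cultures, which were much shallower (3800 to 111293 counts per library, median 41501, with 910 genes tested), the SSB genes again fell most clearly. SSB1 stood at 805, 1116 and 698 CPM at 0 min and at 72.5, 103 and 136 CPM at 120 min in the 3 cultures, from 7 to 37 and 3 to 10 counts. The groups did not overlap, and the log2 change was -3.12 (SE 0.47, edgeR, adjusted p = 7.04e-08). SSB2 stood at 230.1, 392.3 and 639.6 CPM at 0 min and at 81.6, 34.4 and 40.9 CPM at 120 min, again without overlap, with a change of -2.84 (SE 0.63, edgeR, adjusted p = 0.000135). SSZ1 went from 230.1, 302 and 349 CPM to 54.4, 34.4 and 54.6, a change of -2.50 (SE 0.74, edgeR, adjusted p = 0.00364). Both genes rest on few counts: SSB2 had 2 to 13 at 0 min and 1 to 9 at 120 min, and SSZ1 had 2 to 10 and 1 to 6. EGD2 changed by -1.31 (SE 0.70, edgeR, adjusted p = 0.119; -1.82 and 0.0146 with the culture as a block) and EGD1 by -0.87 (SE 0.44, edgeR, adjusted p = 0.0965). ZUO1 stood at 537 ± 33.3 CPM at 0 min and 520 ± 339 CPM at 120 min (SD, n = 3). Its log2 change was -0.14 (SE 0.68, edgeR, adjusted p = 0.886), and it was positive under 4 of the alternatives, up to 0.38.

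At the earlier bulk times the calls were few. From 2.5 to 15 min edgeR and DESeq2 called none of the 6 lower or higher, with 0, 0, 0, 1 and 2 of them at an unadjusted p under 0.05. ZUO1 at 15 min stood at 2129, 1750 and 421 CPM, high in cultures 1 and 2 and not in culture 3, a change of 1.45 (SE 0.64, edgeR, adjusted p = 0.125). At 30 min SSB1 (-1.47) and SSB2 (-1.60) were called lower by edgeR, beside 18.6% of all genes; leaving out culture 2, or culture 3, neither was. At 45 min 4 were called, beside 22.2%: SSB1 (-2.78), SSB2 (-3.20), SSZ1 (-2.48) and EGD2, which had 1, 0 and 0 counts. Without culture 2 only SSB1 was. At 60 min SSB1 (-2.33) and SSB2 (-2.30) were called, beside 24.3%, and only 1 of them once culture 3 was left out. At 90 min SSB1 (-3.21), SSB2 (-3.82) and SSZ1 (-2.13) were called, beside 23.8%, but SSZ1 was not once culture 2, or culture 3, was left out, nor by DESeq2. At 120 min the same 3 genes were called, beside 25.7%. Of 130 ribosomal protein genes tested in bulk 127 were called lower at 120 min, with a median of -3.35, and of 13 basal heat shock factor targets 2 were called lower and 3 higher, with a median of 0.34. A single inducible heat shock gene had enough counts to be tested.

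**Figure D5:**
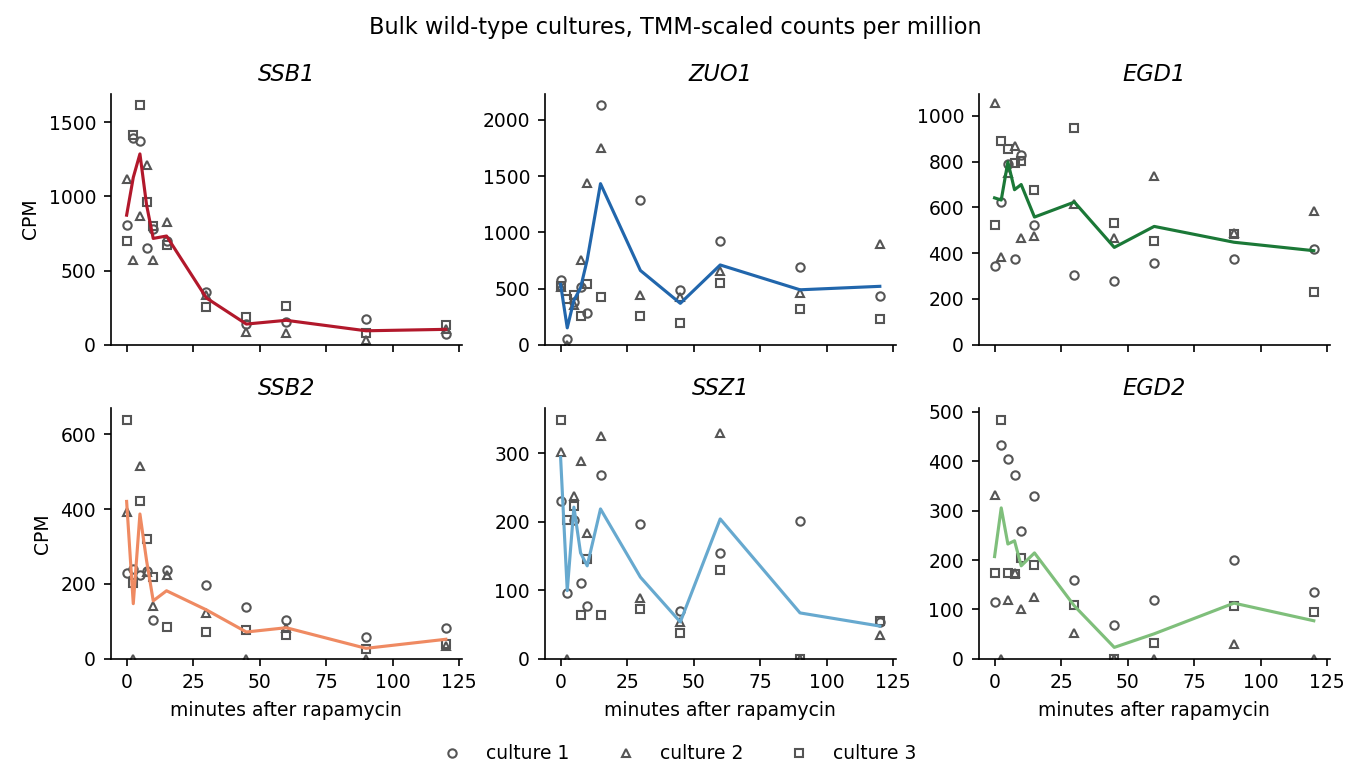
TMM-scaled CPM of the 6 genes in bulk wild-type cultures against minutes after rapamycin, on linear axes that start at 0. Symbols are the 3 cultures and lines their means. SSB1 falls from 698 to 1116 CPM at 0 min to 72.5 to 136 CPM at 120 min, while ZUO1 peaks at 15 min in cultures 1 and 2 and overlaps its 0 min level at 120 min.

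Most of the other factors that meet the nascent chain fell too, with a median change smaller than that of any of the 6 genes. Of 22 such genes (prefoldin, N-terminal acetyltransferases, methionine aminopeptidases, signal recognition particle and others) 18 were called lower and 1 higher in wild-type cells at 50 to 60 min, with a median of -1.44. The share of all genes called lower then was 36.0%. PFD1, a prefoldin subunit gene, changed by -2.43 and the methionine aminopeptidase gene MAP1 by -2.33, while the prefoldin subunit gene YKE2 changed by -0.19 (edgeR, adjusted p = 0.848). The one that rose was BTT1, which encodes the second beta subunit of NAC. It stood low, at 0.585, 0.636, 1.13 and 0.843 CPM in the untreated wild-type sums. At 30 to 40 min it stood at 5.26 and 5.95 CPM and at 50 to 60 min at 2.60 and 3.24, a log2 change of 1.97 (SE 0.27, edgeR, adjusted p = 6.37e-07). In deletion cells BTT1 had 0.788, 0, 0 and 0.431 CPM in the untreated sums and 1.09 and 2.14 CPM at 50 to 60 min. That is a log2 change of 2.58 (SE 0.91, edgeR, adjusted p = 0.0688), not called but no smaller than in wild type. Its interaction was not called (-0.61, SE 1.05, edgeR, adjusted p = 0.674).

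Genes of ribosome assembly and of translation fell further than most of the 6. All 24 ribosome biogenesis genes were called lower at 50 to 60 min, beside 36.0% of all genes. They had a median of -4.86, from the nucleolin gene NSR1 at -7.58 and YTM1 at -6.48 to MPP10 at -2.85 and UTP10 at -2.37. Their median was already -3.31 at 10 to 20 min, when that of the 6 chaperone genes was -0.76 and that of the ribosomal protein genes -1.10. Of 16 translation factor genes 15 were called lower, with a median of -2.94. The elongation factor 3 gene YEF3 changed by -4.32 and TEF4, an elongation factor 1B gene, by -3.73, while the helicase gene DED1 changed by -1.17 and CAM1, the other gene of that 1B subunit, by 0.10 (edgeR, adjusted p = 0.251). The median of the 6 chaperone genes at 50 to 60 min was -2.58.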

How the data were processed

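The authors deposited raw UMI counts per gene for every cell and raw counts per gene for every bulk library; the sources used here do not say whether the latter are UMIs or reads. The submitters' processing notes name bcl2fastq, kallisto 0.46.1, bustools 0.39.3 and sacCer3, with no role or order. The cell filter (no cell had under 500 UMIs), annotation and genotype calling are not given. The 16 genotype PCR libraries were not analysed here, and doublets were not called. UMIs were summed per library and genotype (32 sums), filtered with filterByExpr, scaled with TMM and tested with edgeR 4.0.16 (R 4.3.3, limma 3.58.1), with 1 coefficient per genotype and interval, 16 residual degrees of freedom and a common biological CV of 14.1%. Treated intervals were contrasted with the mean of both untreated ones, and genes with a Benjamini-Hochberg adjusted p under 0.05 were called. To compare with a list, its mean log2 CPM was added to the offsets. Bulk libraries were contrasted with 0 min in the same way (22 residual degrees of freedom, CV 29.7%).

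The labels call both single-cell cultures biological replicates; each was sampled repeatedly, as was each bulk culture, so the culture number pairs the samples by design. Deviations from the group means correlated between samples of one culture with a median of 0.259 in wild-type sums, 0.229 in deletion sums and 0.0852 in bulk. Fits with the culture as a block, RLE factors, library totals, sums scaled by cells, no filter, DESeq2 1.42.0, a single untreated interval, only the groups compared, the list's median, no top 5% of cells by UMIs, wild-type RNA removed from deletion sums, and each library left out were tried. Leaving out 1 culture in the pair and quintile comparisons, or 7 strain codes, was chosen after seeing the data. The genes and lists were chosen with earlier results of these data known. Beyond the 6 genes, the text names the 2 highest and 2 lowest of each list, the 3 nearest to each gene, and FPR1. Promoter sequences are RefSeq's, assembly R64, 1 promoter is not reported here, and 5812 of the 5843 features matched its locus tags.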

Additional observations from a re-analysis of the deposited data

Results flagged for a closer look

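The response of all 6 genes differed between wild-type and deletion cells by a test of the difference itself. At 10 to 20 min the wild-type change was lower than the deletion change by edgeR's interaction test, with differences of -0.94 for SSB1, -0.78 for SSB2, -0.54 for ZUO1, -0.73 for SSZ1, -0.64 for EGD1 and -0.65 for EGD2 on the log2 scale. Of all genes 20.4% were called lower by the same test. None of these early calls held with sums scaled by cells, and those of ZUO1 and EGD2 were lost in fits that left out a library. At 50 to 60 min the differences were -5.35, -4.28, -1.75, -1.94, -1.64 and -2.24 in the same order, beside 30.8% of all genes called lower.

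Among the 4 untreated deletion sums, SSB1 had 1 value apart from the other 3, 2385 CPM at -10 to 0 min in culture 1 against 2475 to 2492. SSZ1 likewise had 555 CPM at -20 to -10 min in culture 1 against 486 to 492. Chance sets a sample apart by this measure in about 1 in 20 groups.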

How the results depend on the processing

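In wild-type cells all 6 changes at 50 to 60 min, the interactions at 50 to 60 min and the differences from the inducible heat shock genes kept their direction and call under every alternative run and without each library in turn, as did those of SSB1, ZUO1, SSZ1, EGD1 and EGD2 from the ribosomal protein genes in that interval. Library totals moved the median of all genes at 50 to 60 min from 0.11 to 0.94 in wild type, and ZUO1 at 0 to 10 min was then 0.026. Sums scaled by cells moved the median in deletion cells from 0.05 to 0.69.

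The deletion changes at 50 to 60 min depended most on the processing. With library totals SSB1 was -0.47, SSB2 -0.28, ZUO1 0.086, SSZ1 -0.28, EGD1 -0.22 and EGD2 -0.32, and scaled by cells the same genes had 0.040, 0.23, 0.58, 0.20, 0.24 and 0.18, none called. With only the groups compared SSB1 was -0.65, SSB2 -0.46, SSZ1 -0.48, EGD1 -0.42 and EGD2 -0.52, none called, in a fit with fewer samples. With the last untreated interval alone SSZ1 was -0.42 and EGD1 -0.39, and with wild-type RNA removed EGD1 was -0.33, not called. Leaving out each library gave SSB1 -0.82 to -0.54, SSB2 -0.64 to -0.35, ZUO1 -0.21 to 0.020, SSZ1 -0.51 to -0.42, EGD1 -0.45 to -0.38 and EGD2 -0.60 to -0.42, with 0 to 5 of the 6 called; EGD1 was not called in 5 of those 6 fits. Ribosomal protein genes called lower there numbered 87, against 30 with library totals, 2 with only the groups compared, 0 with sums scaled by cells and 8 without culture 2's 50 to 60 min library.

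Before rapamycin the wild type minus deletion difference of SSB2 was -0.10 with library totals and -0.0049 with only the groups compared (-0.0096 to 0.078 leaving out a library), and that of EGD1 -0.080 with library totals. SSB2 relative to the ribosomal protein genes was -0.22 and called with the culture as a replicate block, 0.031 against the list's median, and -0.29 to -0.14 leaving out a library. ZUO1 relative to the basal heat shock factor targets was -0.21 with the last untreated interval alone, -0.15 against the median and -0.25 with only the groups compared, none called, and -0.26 to -0.23 leaving out a library; EGD1 was -0.60 to -0.31. Relative to the same list at 30 to 40 min EGD1 was 0.0083 with the last untreated interval alone and -0.098 to 0.041 leaving out a library, never called. In bulk at 120 min ZUO1 was 0.34 with RLE factors, 0.025 with library totals, 0.12 without a filter, 0.38 with DESeq2 and -0.66 to 0.40 leaving out a culture, and EGD2 was -1.82 and called with the block. The block moved the count called in deletion cells to 5 at 20 to 30 min and 5 at 30 to 40 min, and changed no other call of the 6 genes among the results recomputed. The ratio of EGD1 to EGD2 from 20 min was 0.54 and called, in a comparison where every pair had the smallest p that its arrangements allow. Leaving out a culture gave -0.74 to -0.66 for SSB1 to SSB2 and 0.40 to 0.53 for ZUO1 to SSZ1, none called. Causes were not tested. Bulk depth limits the genes with few counts.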

Other observations

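The 72 wild-type strain codes were not alike. Those 7 with the fewest cells (CB, CD, CF, CG, CH, CI and CJ, with 786 to 1021 cells each against 2003 to 2752 for the other 65) were compared with the rest before rapamycin, a grouping made after seeing the data, and without a test. In culture 1 the 7 codes had 1562 to 1944 CPM (of library totals) of SSB1 against 1975 to 2177 in the others, and in culture 2 they had 1816 to 2119 against 2415 to 2580.3, with no overlap in either. FPR1 was higher in the 7 codes, also with no overlap, at 1308 to 1459.98 CPM against 885 to 994 in culture 1 and at 1448 to 1586 against 1006 to 1137 in culture 2. The share of all features without overlap between the sets was not computed, so these values do not show whether SSB1 and FPR1 are unusual. ZUO1, SSZ1, EGD1 and EGD2 overlapped between the sets in both cultures, and SSB2 did so too, at 1351 to 1534 against 1469 to 1661 in culture 1 and 1526 to 1752 against 1693 to 1825 in culture 2. Without the 7 codes every call and direction of the 6 genes in the single-cell comparisons recomputed was as with them.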
